A study of Mus musculus with 6 samples.

Results

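The oxidative phosphorylation genes described here are the nuclear genes of respiratory complexes I to V on an Illumina MouseWG-6 v2.0 array. A probe was taken in where its platform gene symbol starts with Ndufa, Ndufb, Ndufc, Ndufs, Ndufv, Uqcr, Cox4 to Cox8 or Atp5, or is Sdha, Sdhb, Sdhc, Sdhd or Cyc1. That rule found 136 of 45281 probes, for 88 of the 19057 genes that a probe names alone. Of the 88 genes, 79 are named for subunits, 8 are complex I assembly factors (Ndufaf1 to Ndufaf8) and 1 is a pseudogene (Ndufs5-ps). Expression was measured in 6 pools of sorted satellite cells. The donors were C57BL/6 males, 8 to 10 weeks old. The comparison asked how cells from pharyngeal muscle (3 pools) differ from cells from limb muscle, taken from gastrocnemius and quadriceps (3 pools). A pool held 150000 to 200000 cells from 10 to 30 mice, so every value is an average over many animals, and RNA was amplified once before labelling. No genetic change or treatment is named for either group.

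Oxidative phosphorylation makes ATP in the inner mitochondrial membrane. Complex I takes electrons from NADH and complex II takes them from succinate. Complex III passes them by way of cytochrome c to complex IV, which reduces oxygen, and the proton gradient so formed drives complex V, the ATP synthase. Satellite cells are the stem cells of skeletal muscle. At rest they are small cells with few mitochondria, and respiration increases when they are activated. Muscle and heart use their own isoforms of several complex IV subunits.

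Levels are given as log2 of background-corrected, quantile-normalized intensity, and differences are pharyngeal minus limb on that scale. A probe counts as above background where its detection p is under 0.05. Genes with such a probe on 3 or more arrays were tested, and the brightest of these probes stands for the gene. Each array had 20919 to 22793 probes above background. The 6 arrays lay on 1 chip in group order, so position and group cannot be told apart. Pax7, a transcription factor and the main marker of these cells, was above background on all arrays. Its mean level was 5.66 in pharyngeal and 7.93 in limb pools (-2.27, SE 0.33, limma adjusted p = 0.0144). In all, 8 of 17 satellite cell markers tested were lower in the pharyngeal pools (limma, adjusted p under 0.05). The mean level of those markers was 6.93 to 7.40 in pharyngeal and 8.20 to 8.58 in limb pools. Of 16 epithelial markers 8 were higher, with list means of 6.53 to 8.33 in pharyngeal and 4.76 to 4.88 in limb pools. Of 18 epithelial markers with a probe, 6 were above background on no limb array. The 4 thyroid and parathyroid markers tested were above background on all pharyngeal arrays and on no limb array, so they entered the test only through the pharyngeal pools, and 3 were higher. Of 7 macrophage and myeloid markers 2 were higher (means 6.18 to 7.13 against 5.23 to 5.66), and groups overlapped for 4. S100a9, among the higher ones, was above background on no limb array, so it entered the test only through the pharyngeal pools. Of 12 such markers with a probe, 5 were above background on no limb array and 1 on no pharyngeal array. None of 9 endothelial, 9 fibro-adipogenic progenitor and 9 pericyte and smooth muscle markers passed the threshold. Even so, 8 of the 9 endothelial markers had differences below 0, and their list mean was 5.59 to 6.25 in pharyngeal and 6.30 to 6.53 in limb pools. List means overlapped for fibro-adipogenic progenitor (7.49 to 8.65 against 7.94 to 8.79) and pericyte and smooth muscle markers (8.61 to 8.98 against 8.89 to 8.93). What these cell markers contribute to the differences below was not tested. In pooled cells, fewer cells of a type and less RNA per cell cannot be told apart.

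No oxidative phosphorylation gene passed the test, and most had differences below 0. Of the 88 genes, 84 were tested, and 0 passed limma at an adjusted p under 0.05 in either direction. Among all 11262 genes tested 3.32% passed, 1.71% as higher and 1.61% as lower in pharyngeal pools. Without adjustment 21 of the 84 had p under 0.05 with a lower level and 1 with a higher level. The shares of all genes were 11.6% and 8.74%, or 20.3% together. The difference was below 0 for 76 of the 84, against 55.5% of all genes. All 3 pharyngeal pools lay below all 3 limb pools for 38 of the 84, against 15.0% of all genes, and above them for 1, against 11.7%. The median difference was -0.36 for the 76 tested subunits and -0.06 for all genes. On the linear scale the subunit median is 1.29-fold lower in pharyngeal pools.

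**Figure D1:**
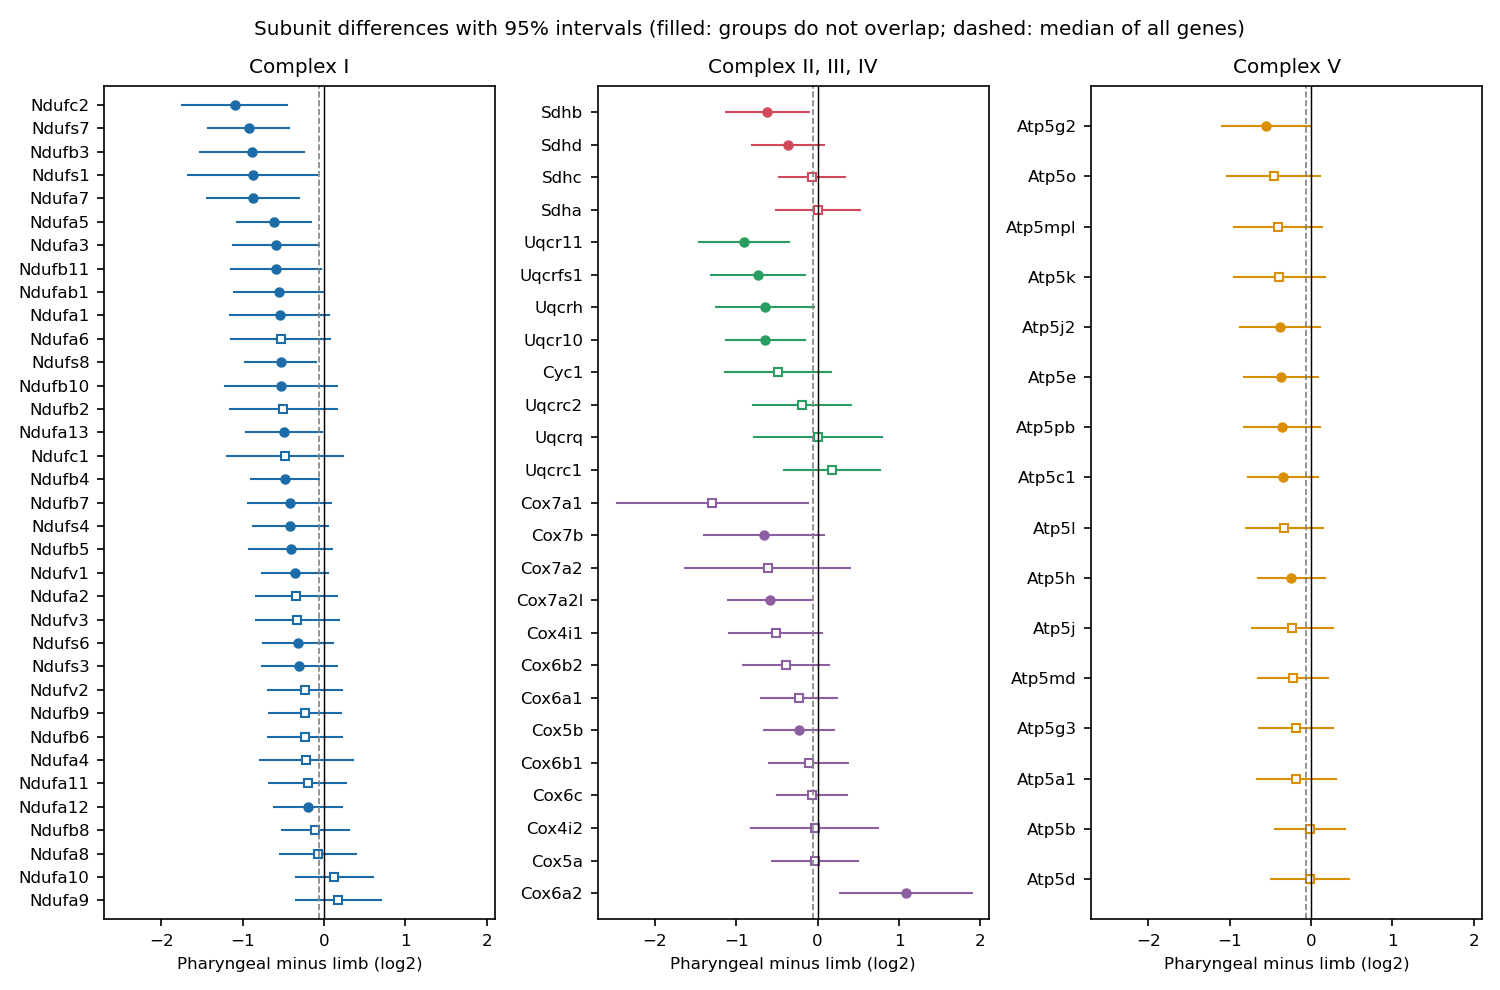
Differences of the 76 tested subunits, pharyngeal minus limb on the log2 scale, with 95% intervals from limma; filled symbols mark genes whose groups do not overlap, and the dashed line is the median of all genes tested. Of the 76 symbols 70 lie below 0, from -1.29 (Cox7a1) upward, and Cox6a2 stands alone at 1.08.

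By complex, the median difference was -0.42 over 35 subunits of complex I, -0.21 over 4 of complex II, -0.57 over 8 of complex III, -0.23 over 13 of complex IV and -0.33 over 16 of complex V. All 16 complex V subunits, 33 of 35 in complex I and 12 of 13 in complex IV were below 0, as were 3 of 4 in complex II and 6 of 8 in complex III. Groups did not overlap, with pharyngeal pools lower, for 21 of 35 subunits of complex I, 2 of 4 of complex II, 4 of 8 of complex III, 3 of 13 of complex IV and 6 of 16 of complex V. The share of all genes tested was 15.0%. The difference between one complex and another was not tested. Subunits of a complex are not replicates of the pools.

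The median difference varied between pharyngeal pools. Relative to the mean of the limb pools, the median subunit read -0.35, -0.38 and -0.19 in pharyngeal pools 1, 2 and 3, while limb pools 1, 2 and 3 read -0.06, 0.04 and 0.05. The median of all genes lay between -0.08 and -0.05 in the pharyngeal pools. Pharyngeal pool 3 was therefore closest to the limb pools: it held the highest of the 3 pharyngeal values for 46 of 76 subunits, against 17 for pool 1 and 13 for pool 2. For complex V its median was -0.07, against -0.37 and -0.36 in the other two. The same array had the most probes above background of all 6 (22793) and the highest mean of epithelial markers (8.33), and what these contribute was not tested. Pharyngeal pools also spread more. The median SD over the subunits was 0.24 in pharyngeal and 0.14 in limb pools, and over all genes 0.36 and 0.22.

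**Figure D2:**
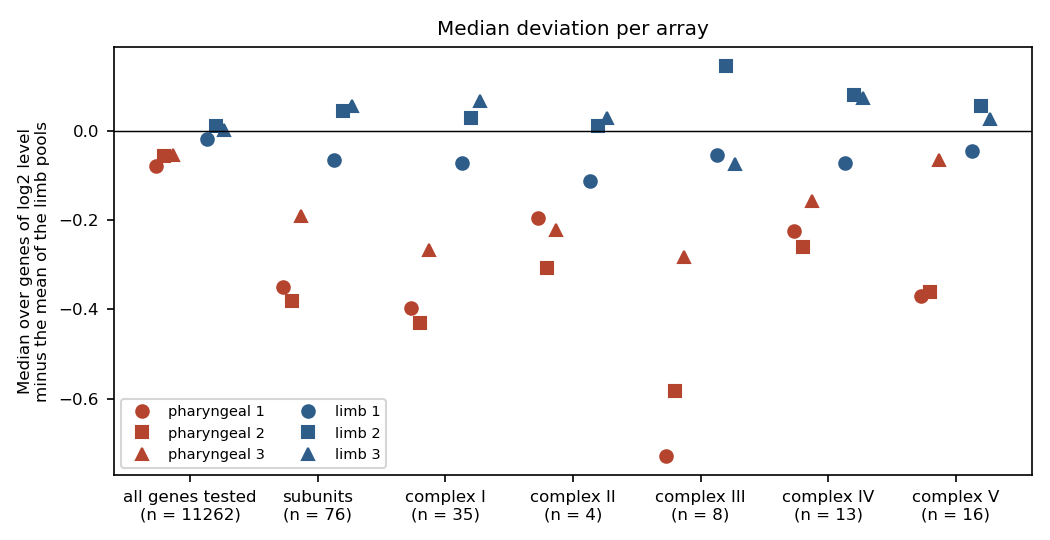
Median over genes of each array's log2 level minus the mean of the limb pools, for all genes, all subunits and each complex; red marks pharyngeal and blue limb pools, and shapes mark pools 1 to 3. All pharyngeal medians of the 5 complexes are below 0, and pool 3 is nearest to the limb pools for all complexes but II.

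Most of the subunits have bright probes, and their median was below that of all genes at each level of brightness. With all genes tested split into 4 equal bins by mean level, 58 of the 76 fell in the brightest, where their median difference was -0.34 and that of all 2816 genes -0.06. In that bin pharyngeal pools lay below limb pools for 28 of 58 subunits and for 18.6% of all genes. In the next bin, 12 subunits had a median of -0.51 against -0.10 for all genes there. In the other two bins 2 and 4 subunits had medians of -0.65 and -0.49, against -0.10 and -0.01.

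**Figure D3:**
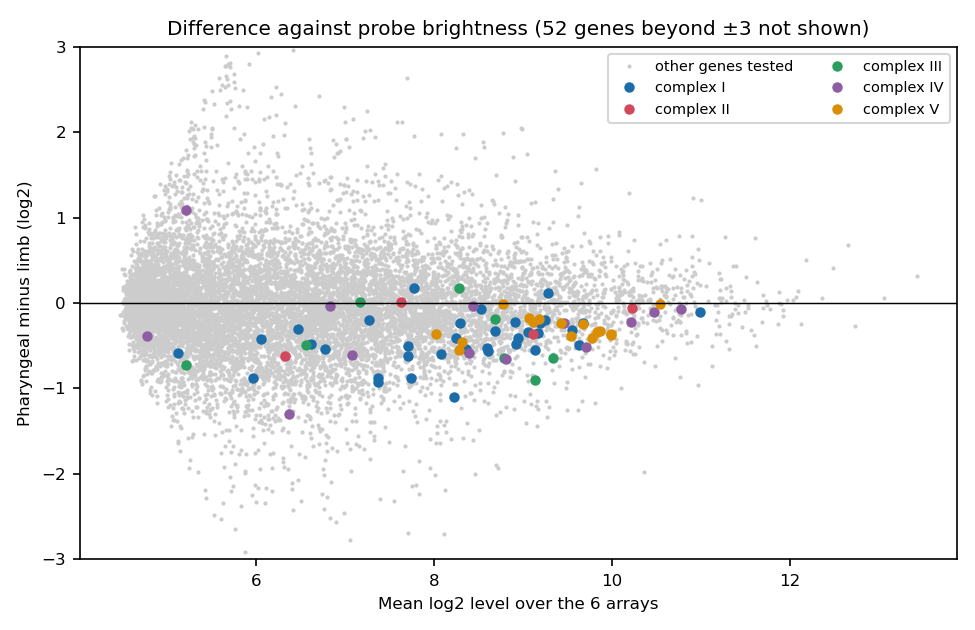
Difference (pharyngeal minus limb, log2) against mean log2 level over the 6 arrays for all genes tested, with subunits coloured by complex; 52 genes beyond ±3 are not shown. Most subunits lie at levels above 7.59, where the brightest bin begins, and below 0.

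Promoters of respiratory genes are known to share binding sites of the factors NRF1, GABP, YY1 and the oestrogen-related receptors (ERR), so the RefSeq promoter windows (GRCm38.p6, 250 bases before to 50 after the start) were searched on both strands. Windows were found for 65 of the 79 subunits. The NRF1 core (GCGCA, then any base, then GCGC) was in those of 16 of 65 subunits (24.6%), against 994 of the 9042 tested genes with a window and 5.19% of all 27025 genes. The ERR letters AAGGTCA were in 10.8%, against 3.82% of tested genes, the YY1 letters AAGATGG in 15.4% against 8.33%, and the GABP letters CCGGAAG in 24.6% against 19.3%. The YY1 and GABP letters can overlap by 3 bases, and the NRF1 core reads nearly the same on both strands. Complex V had the NRF1 core in 6 of 14 genes and complex I in 6 of 32. The median difference was -0.33 over the 16 subunits with the NRF1 core and -0.41 over the 47 tested without it. NRF1 itself (gene Nrf1) read 6.53, 6.97 and 6.95 in pharyngeal and 7.16, 7.28 and 7.49 in limb pools (-0.49, SE 0.21, adjusted p = 0.249). Esrra, Gabpa and Yy1 differed by 0.29, 0.18 and -0.23 with overlapping groups. These 4 genes were named because they match the motifs.

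The 4 subunits with the most negative differences among those with an NRF1 core before the start are given as the 250 bases upstream, 5′ to 3′ in the gene's direction, with NRF1 and ERR matches in capitals. They are printed to show where the core lies. Ndufa6 (-0.53) and Atp5o (-0.46) have the core 23 and 9 bases after the start and are not printed. A match is a run of letters and does not show binding. None of the 4 passed the test. Ndufa5, a matrix-arm subunit of complex I, read 7.28, 7.33 and 7.60 in pharyngeal and 8.05, 8.15 and 7.86 in limb pools (-0.62, SE 0.20). Ndufb4, of its membrane arm, read 8.81, 8.61 and 8.62 against 9.12, 9.12 and 9.23 (-0.48, SE 0.18). Both had separate groups. Atp5k, a small membrane subunit of complex V, read 8.97, 9.38 and 9.69 against 9.90, 9.58 and 9.73, with overlap (-0.39, SE 0.24), and Atp5g2 of its c ring differed by -0.55. The NRF1 core begins 26 bases before the start in Ndufa5 (chr6:24527691-24527940, minus strand; 190 before the start of its other RefSeq window), 42 in Atp5g2 (chr15:102671048-102671297, minus strand) and 50 in Atp5k (chr5:108434400-108434649, minus strand). Ndufb4 (chr16:37654369-37654618, minus strand) has 3 NRF1 cores, 191, 79 and 22 bases before the start, and an ERR match at 55.
Ndufa5: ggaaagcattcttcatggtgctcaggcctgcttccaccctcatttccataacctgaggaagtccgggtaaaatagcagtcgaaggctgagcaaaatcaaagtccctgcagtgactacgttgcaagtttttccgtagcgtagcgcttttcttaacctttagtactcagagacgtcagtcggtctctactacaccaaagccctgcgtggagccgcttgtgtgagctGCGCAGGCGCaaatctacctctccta
Atp5g2: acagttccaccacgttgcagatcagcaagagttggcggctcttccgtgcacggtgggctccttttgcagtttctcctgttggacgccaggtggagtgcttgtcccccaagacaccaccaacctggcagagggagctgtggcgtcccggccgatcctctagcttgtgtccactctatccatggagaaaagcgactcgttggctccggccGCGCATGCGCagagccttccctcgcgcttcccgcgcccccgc
Ndufb4: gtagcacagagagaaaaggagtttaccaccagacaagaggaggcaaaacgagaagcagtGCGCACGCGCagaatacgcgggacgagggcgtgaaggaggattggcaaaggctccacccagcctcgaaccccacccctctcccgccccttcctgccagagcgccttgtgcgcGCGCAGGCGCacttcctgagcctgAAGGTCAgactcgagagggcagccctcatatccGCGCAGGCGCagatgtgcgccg
Atp5k: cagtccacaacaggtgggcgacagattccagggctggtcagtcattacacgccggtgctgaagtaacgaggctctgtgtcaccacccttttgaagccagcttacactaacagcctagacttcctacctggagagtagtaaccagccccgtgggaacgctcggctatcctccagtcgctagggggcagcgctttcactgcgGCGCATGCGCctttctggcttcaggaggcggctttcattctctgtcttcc

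In complex I, the core subunits carry the flavin and the iron-sulfur clusters that move electrons. All 6 that were tested had differences below 0 (median -0.45), and 5 of them had groups that did not overlap, against 15.0% of all genes in that direction. Ndufs7, which holds the last iron-sulfur cluster before ubiquinone, read 6.68, 6.85 and 7.21 in pharyngeal pools and 7.98, 7.74 and 7.78 in limb pools. Each pharyngeal pool was below each limb pool, with a difference of -0.92 (SE 0.21, 95% interval -1.42 to -0.43, adjusted p = 0.0654). Ndufs1, the largest core subunit, read 5.75, 4.94 and 5.90 against 5.97, 6.37 and 6.87, so that the groups were separate but the highest pharyngeal and lowest limb pool nearly met (-0.88, SE 0.34). Ndufs8 also binds iron-sulfur clusters and differed by -0.53 (SE 0.19). Ndufv1, which binds NADH and flavin, had narrow groups that were separate. Its level was 8.99 ± 0.04 in pharyngeal and 9.35 ± 0.07 in limb pools (SD, n = 3), a difference of -0.36 (SE 0.17, 95% interval -0.76 to 0.05). Ndufs3 and Ndufv2 differed by -0.30 and -0.24.

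Accessory subunits surround this core. Ndufc2, a small membrane-arm subunit, had the largest difference of the complex: 7.10, 7.90 and 8.02 in pharyngeal pools against 8.72, 8.70 and 8.89 in limb pools. The groups were separate, with pharyngeal pool 1 lowest (-1.10, SE 0.28, 95% interval -1.74 to -0.45, adjusted p = 0.0826). A second probe of Ndufc2 gave -0.81. Ndufa7 read 6.53, 7.27 and 6.99 against 7.70, 7.71 and 8.00 (-0.87, SE 0.24, adjusted p = 0.106). Ndufb3, of the distal membrane arm, read 6.97, 7.12 and 7.82 against 7.95, 8.36 and 8.25 (-0.88, SE 0.27, adjusted p = 0.133). In both the groups were separate, and for Ndufb3 the third pharyngeal pool came close to the lowest limb pool. All 10 distal membrane arm subunits (Ndufb) were below 0, from -0.88 to -0.11, the smallest being Ndufb8, which read 10.94 ± 0.08 in pharyngeal and 11.04 ± 0.05 in limb pools (SD, n = 3). Ndufs4, a matrix-arm subunit with 4 probes, gave -0.41 (SE 0.20), and its probes ran from -0.45 to -0.38.

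The 2 exceptions in complex I were Ndufa9 and Ndufa10. Ndufa9, which sits at the junction of the arms, read 7.91, 7.67 and 8.01 in pharyngeal and 7.65, 8.00 and 7.43 in limb pools, with groups that overlapped (0.18, 95% interval -0.34 to 0.69). Ndufa10 differed by 0.12 (95% interval -0.35 to 0.60). Ndufa4, named for complex I but found in complex IV, was counted here with complex I by its symbol. It differed by -0.22 (SE 0.24, 95% interval -0.79 to 0.35), also with overlapping groups.

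Complex II is the only one of the 5 with all subunits encoded in the nucleus, and its members had unlike differences. Sdhb, the iron-sulfur subunit, read 5.73, 6.13 and 6.20 in pharyngeal and 6.46, 6.61 and 6.85 in limb pools. The groups were separate (-0.62, SE 0.22, 95% interval -1.13 to -0.11, adjusted p = 0.177), but its 3 probes ran from -0.62 to -0.02. Without limb pool 3 the difference was -0.08 (adjusted p = 0.934), and with no background correction it was -0.31. Sdha, the flavoprotein that oxidizes succinate, read 7.61, 7.90 and 7.38 against 7.44, 7.84 and 7.58, with full overlap (0.01, 95% interval -0.50 to 0.53). The membrane anchors Sdhd and Sdhc differed by -0.36 (SE 0.19, groups separate) and -0.06 (SE 0.17, groups overlapping).

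In complex III, 6 of 8 subunits had differences below 0, and none passed the test. Uqcr11, a small subunit without a redox centre, read 8.49, 8.46 and 9.11 in pharyngeal and 9.53, 9.73 and 9.50 in limb pools. Every pharyngeal pool was lower, with pool 3 nearest (-0.90, SE 0.24, 95% interval -1.45 to -0.35, adjusted p = 0.0919; without pharyngeal pool 3, -1.11 and adjusted p = 0.0447). Uqcrh, the hinge protein between cytochromes c1 and c, read 8.47, 8.06 and 8.85 against 8.86, 9.27 and 9.20 (-0.65, SE 0.26), with the groups only just separate. Uqcr10 differed by -0.64 (SE 0.21), and its other probe gave -0.67. Uqcrfs1, the Rieske iron-sulfur protein, read 4.76, 4.65 and 5.11 against 5.25, 5.95 and 5.52, which is near background (-0.73, SE 0.25). With no background correction its difference was -0.25, and with an offset of 50 it was -0.38. Cytochrome c1 (Cyc1) read lowest in pharyngeal pool 1 at 5.75, with 6.48 and 6.71 in the others and 6.75, 6.95 and 6.71 in limb pools (-0.49, SE 0.28). The core proteins Uqcrc1 and Uqcrc2, which are not redox carriers, differed by 0.18 (95% interval -0.41 to 0.76) and -0.19 (95% interval -0.80 to 0.42), and both had overlapping groups. Uqcrq differed by 0.01 (SE 0.33).

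Complex IV held the members that differed most from one another, among them its tissue-restricted isoforms. Cox6a2, the heart and skeletal muscle isoform of subunit 6a, was the only member with all pharyngeal above all limb pools: 6.43, 5.33 and 5.52 against 4.52, 4.37 and 5.13. Its difference was 1.08 (SE 0.35, 95% interval 0.27 to 1.90, adjusted p = 0.144), and its probe was above background on all pharyngeal arrays but on 1 of 3 limb arrays, so that the limb level is near background. The difference was 0.39 with no background correction and 0.58 with an offset of 50. The broadly expressed partner Cox6a1 read 9.13, 9.52 and 9.40 against 9.45, 9.73 and 9.56, with overlap (-0.23, SE 0.20). Of 16 mature myofibre markers tested, Myh1 (2.12, limma adjusted p = 0.0169) and Tnni2 (2.12, limma adjusted p = 0.0109) were higher. Atp2a1 (-1.58, limma adjusted p = 0.0177) was lower. The median difference of the list was 0.48, with 10 genes above 0 and 6 below. Groups were separate for 6 with pharyngeal pools higher and for 2 with them lower, against 11.7% and 15.0% of all genes. That list holds Cox6a2 itself, its mean level was 6.17 to 6.73 in pharyngeal and 5.88 to 6.20 in limb pools, and Myh7 and Tnni1 were above background on no array. The part of myofibre RNA in the Cox6a2 difference was not tested.

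Cox7a1, another muscle isoform, was below all limb pools in 2 of 3 pharyngeal pools. It read 6.99 in pharyngeal pool 1, within the limb range of 6.79 to 7.23, and 5.12 and 5.07 in pools 2 and 3. Over all pools the difference was -1.29 (SE 0.50, 95% interval -2.47 to -0.12, adjusted p = 0.211), and without pharyngeal pool 1 it was -1.89 (SE 0.22, adjusted p = 0.0099). Pharyngeal pool 1 was the highest pharyngeal pool for Cox6a2 as well. Cox7a2, the broadly expressed partner, was low in another pool: it read 7.37, 5.74 and 7.19 in pharyngeal pools and 7.48, 7.05 and 7.61 in limb pools (-0.61, SE 0.43; -0.10 without pharyngeal pool 2). Across all alternatives the Cox7a1 difference ran from -1.89 to -0.61, and with 1 array left out from -1.89 to -0.98. Cox7a1 is also used in brown fat, and what brown fat contributes was not tested. Of 10 brown adipocyte markers, which include Cox7a1, Cox8b and Ppargc1a, 4 (Ucp1, Cidea, Plin1 and Cox8b) were above background on no array. Fabp4 was above background on all arrays, with a mean of 8.50 in pharyngeal and 9.06 in limb pools (-0.56, SE 0.22). The list mean was 5.98 to 6.61 in pharyngeal and 6.73 to 7.03 in limb pools. Of the 5 tested, Dio2 was higher (adjusted p = 0.0412) and Elovl3, above background on no pharyngeal array, was lower (adjusted p = 0.0338).

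**Figure D4:**
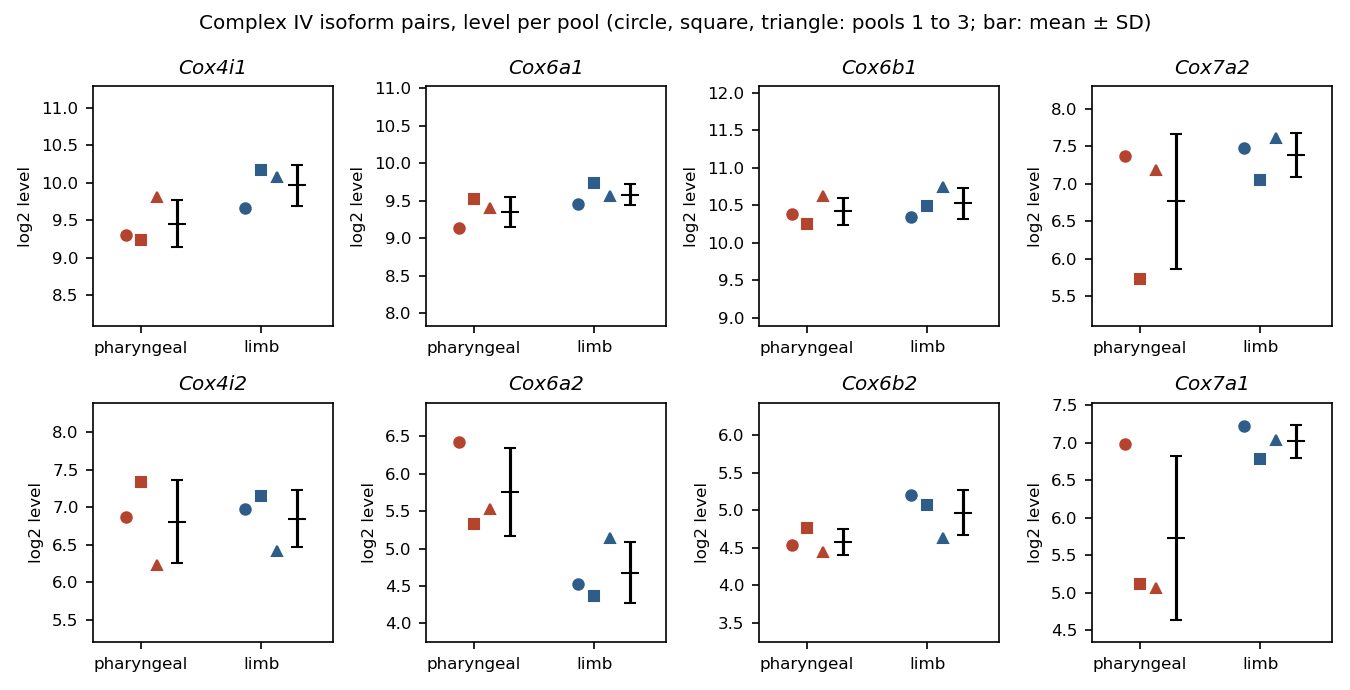
Levels (log2 intensity) of 4 complex IV isoform pairs in each pool, with the mean and SD of each group beside the points; each panel spans the same range but has its own start, and levels are not comparable between probes. Cox6a2 is the only pair member with all pharyngeal pools above the limb pools, and pharyngeal pool 1 of Cox7a1 lies with the limb pools.

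Of the other isoform pairs, Cox4i1, the usual form of subunit 4, differed by -0.51 (SE 0.24), and Cox4i2, a form known from lung and from low oxygen, by -0.04 (95% interval -0.82 to 0.74). Cox6b1 differed by -0.11 (SE 0.21), and its other probe gave -0.34 (SE 0.25). The testis form Cox6b2 was above background on 1 of 3 pharyngeal and 3 of 3 limb arrays (-0.39, SE 0.22). Cox7b differed by -0.66 (SE 0.31), with 7.83, 8.54 and 9.06 in pharyngeal pools against 9.06, 9.13 and 9.21 in limb pools, so that pharyngeal pool 3 touched the limb range. The Cox7b difference was -0.34 without pharyngeal pool 1. Cox7a2l differed by -0.58 (SE 0.22) with separate groups. Cox6c, Cox5a and Cox5b, which all cells use, differed by -0.06, -0.04 and -0.23. The other probe of Cox5b gave -0.63 (SE 0.23). The probes of Cox7b2, Cox8b and Cox8c were above background on no array, with lowest detection p of 0.683, 0.169 and 0.455, so these isoforms were not tested.

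Complex V gave small differences of 1 sign. The F1 head makes ATP, and its catalytic subunit Atp5b read 10.56, 10.38 and 10.66 in pharyngeal and 10.57, 10.47 and 10.61 in limb pools, with full overlap (-0.01, 95% interval -0.44 to 0.41). Atp5a1, its partner in the head, differed by -0.18. Of the central stalk, Atp5d differed by -0.01, and Atp5c1 and Atp5e by -0.34 and -0.37, these with separate groups. Atp5g2, a c-ring gene, had the largest difference of the complex: 7.68, 8.12 and 8.21 against 8.29, 8.74 and 8.64. Pharyngeal pool 3 and limb pool 1 nearly met (-0.55, SE 0.23, adjusted p = 0.238). Atp5g3, which encodes the same mature c subunit, differed by -0.19 (SE 0.20). In the peripheral stalk, Atp5o, the oligomycin sensitivity protein, read 7.99, 7.72 and 8.53 against 8.62, 8.49 and 8.52 (-0.46, SE 0.24). Atp5pb, Atp5h and Atp5j of the stalk differed by -0.36, -0.24 and -0.23. Among the small membrane subunits the differences ran from -0.41 (Atp5mpl, SE 0.23) to -0.22 (Atp5md, SE 0.19).

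The 7 tested complex I assembly factors, which build the complex and are not part of it, had a median difference of -0.10. Ndufaf5 read 5.85, 6.72 and 6.71 against 6.91, 7.47 and 7.30, with separate groups (-0.80, SE 0.30, adjusted p = 0.195). Ndufaf1 differed by -0.47 (SE 0.24), Ndufaf7 by 0.20 (SE 0.31) and Ndufaf4 by 0.33 (SE 0.26), and their groups overlapped. Ndufaf6 was above background on no array. The probe of the pseudogene Ndufs5-ps differed by -0.31 (SE 0.19), and whether it also reads the parent gene Ndufs5 was not tested.

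Where a gene had several probes, they mostly gave 1 direction. Of 27 such genes, 25 had all probes on the same side of 0, and the median gap between the lowest and highest probe was 0.16. The exceptions were Ndufab1, the mitochondrial acyl carrier protein, with 4 probes from -0.59 to 0.35, and Atp5j, with 3 probes from -0.51 to 0.18. Of all 121 probes above background, 110 had a difference below 0.

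Subunits encoded in mitochondrial DNA were not part of the rule. Of 13 such genes 8 were measured, and all 8 were below 0 (median -0.27) with none past the threshold. ND4L, a complex I subunit, read 8.70, 9.20 and 9.12 in pharyngeal and 9.53, 9.47 and 9.56 in limb pools, with separate groups (-0.51, SE 0.21, adjusted p = 0.223).

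In 7 further lists of mitochondrial and energy genes, 0 of 117 entries passed the threshold. The median was -0.38 over 16 genes of the tricarboxylic acid cycle, -0.21 over 39 respiratory chain assembly factors (which include the Ndufaf genes above), -0.21 over 16 genes of fatty acid oxidation and -0.20 over 10 electron carrier and coenzyme Q genes. It was -0.04 over 13 glycolysis genes, -0.02 over 16 regulators of mitochondrial biogenesis and -0.01 over 7 carriers and uncoupling genes. Idh2, the NADP-dependent isocitrate dehydrogenase of the matrix, read 8.46, 8.20 and 9.08 against 9.76, 9.53 and 9.88 (-1.14, SE 0.27, adjusted p = 0.0683). Eci1, an isomerase of fatty acid oxidation, differed by -1.23 (SE 0.27, adjusted p = 0.0542), and Uqcc2, an assembly factor of complex III, by -1.47 (SE 0.45, adjusted p = 0.131). In each of these 3 the groups were separate. Ppargc1a, the coactivator that drives mitochondrial biogenesis in muscle, read 5.07, 4.73 and 5.54 in pharyngeal and 6.83, 6.11 and 6.17 in limb pools, also separate (-1.26, SE 0.30, 95% interval -1.95 to -0.57, adjusted p = 0.0691). In the same list groups were separate in the opposite direction for 4 genes, the related coactivator Pprc1 (1.07, SE 0.29), Ppard (0.86), Hif1a (0.73) and Gabpb1 (0.55), and lower for 2, Ppargc1a and Nrf1. Among all genes tested, groups were separate for 11.7% with pharyngeal pools higher and for 15.0% with them lower. Pfkp, a phosphofructokinase of glycolysis, differed by 0.94 (SE 0.32), Coq10a by -0.97 (SE 0.32) and Vdac3 by -0.21 (SE 0.26), none past the threshold.

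**Figure D5:**
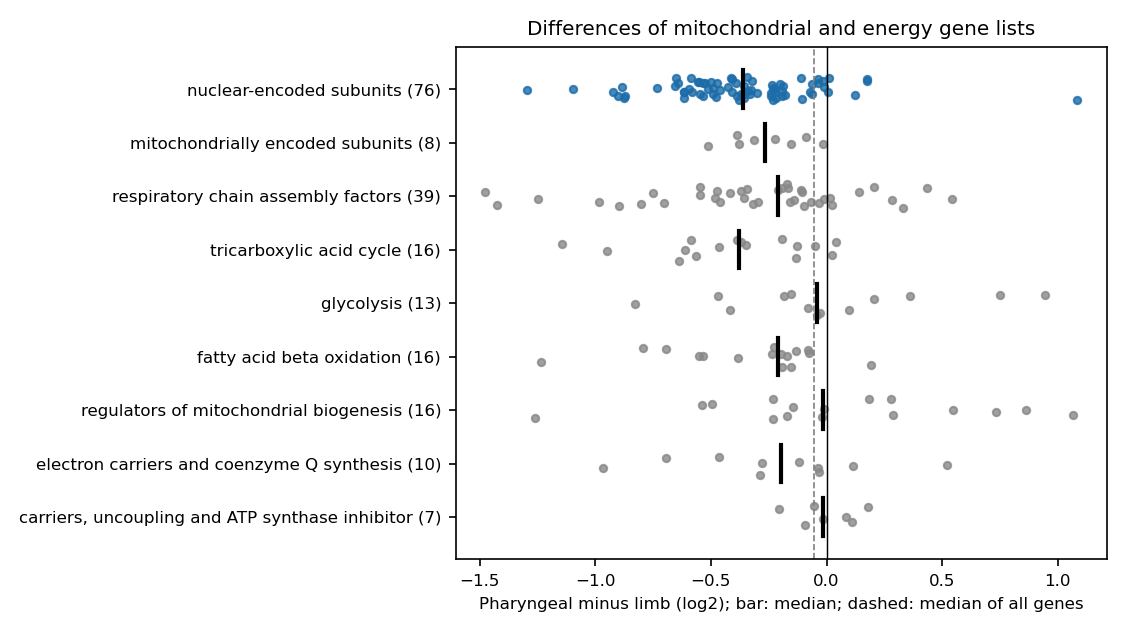
Differences (pharyngeal minus limb, log2) of the nuclear-encoded subunits in blue and of other mitochondrial and energy gene lists in grey; each point is a gene, bars are medians and the dashed line is the median of all genes tested. The subunits, the mitochondrially encoded subunits and the tricarboxylic acid cycle have medians of -0.36, -0.27 and -0.38, while glycolysis lies at -0.04.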

How the data were processed

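The authors deposited 2 tables of probe intensity, 1 unnormalized with detection p-values and 1 processed. Per the submitters' processing notes the software was GenomeStudio 2011.1, and per the series' design text, each detection p-value gives how many of the negative controls, as a proportion, outshone that probe. The unnormalized table was the start. Background was removed in limma 3.58.1 (R 4.3.3) with the normexp model, whose controls were inferred from those p-values. An offset of 16, quantile normalization and log2 followed, which shrinks the differences of dim genes. Group was the only term of the limma fit (lmFit and eBayes, two-sided) over 11262 genes, with Benjamini-Hochberg adjustment over all of them; 0.05 was the threshold and each SE is limma's moderated one. P-values set the group difference against the spread between pools, which limma moderates over all genes, and 3 arrays per group limit the precision. Probes with several gene names (18) or none (10378) were not used. The fit was also run on simulated data with independent genes, which does not show how it performs for small differences shared by many genes. Members and lists were chosen with earlier results of these data known. The genes named are, per complex, the 3 largest differences in each direction, the members of isoform pairs, and the largest difference of each other pathway list. Further subunits, Nrf1, Esrra, Gabpa, Yy1, Pprc1, Ppard, Hif1a, Gabpb1 and Fabp4 were added after values were seen. Deviations from the group means were almost uncorrelated between same-numbered pools (-0.013 to 0.00023), and numbers were not used as pairs. With 3 pools per group, these correlations do not show whether same-numbered pools were collected together. Alternatives covered background, offset, normalization, source table, filter, variance model, array weights, probe rule, a replicate block and leaving out each array.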

Additional observations from a re-analysis of the deposited data

How the results depend on the processing

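In every alternative run the medians of complexes I to V stayed below 0. No member passed the threshold upward under any of them, and between 0 and 3 passed downward. The count was 2 with no background correction (Ndufc2 and Ndufs7), 2 with the processed table (both again), 1 with an offset of 50 (Ndufs7), 1 with the mean of kept probes (Ndufs7) and 3 with a mean-variance trend (Ndufc2, Uqcr10 and Uqcr11). Leaving out 1 array gave 0 to 1 (Cox7a1 without pharyngeal pool 1, Uqcr11 without pharyngeal pool 3). Members lower at an unadjusted p under 0.05 numbered 5 (without limb pool 2) to 31 (no background correction), 8 with median scaling. The complex I median was -0.31 with no background correction, -0.31 with the processed table and -0.30 with median scaling. For complex II it was -0.12 with median scaling and -0.27 to -0.072 with 1 array left out (the latter without limb pool 3). For complex III it was -0.25 with no background correction, -0.25 with the processed table and -0.37 with an offset of 50. For complex IV it was -0.39 with the mean of kept probes, -0.32 with each probe on its own, and -0.31 to -0.16 with 1 array left out. For complex V it was -0.22 with median scaling. Subunits below 0 were 65 to 71 of 74 to 79 tested, and 102 of 110 probes; median scaling gave the 65, and the median of all genes was then 0.03. Differences near 0 changed sign: Cox4i2 was 0.025 with cyclic loess, 0.13 with median scaling and -0.30 to 0.26 with 1 array left out, and Sdha was -0.045 with array weights and -0.13 to 0.13 with 1 array left out. With 1 array left out Cox6b1 ran from -0.21 to 0.0045, Cox6c from -0.11 to 0.014, Ndufaf7 from -0.046 to 0.45 and Uqcrq from -0.28 to 0.19. The replicate block gave 0 members past the threshold and 139 genes in all, against 374. A mean-variance trend gave 593 genes in all, and leaving out limb pool 1, 2 or 3 gave 80, 62 and 58. The cause of these changes was not tested.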
